A study of Mus musculus with 24 samples.

Results

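The genes described here encode the enzymes that attach glutathione, glucuronic acid or sulfate to other molecules. They were chosen by symbol: every array probe whose accession matched a mouse RefSeq gene of the Gst, Mgst, Ugt or Sult families was taken, and the brightest probe of a gene in a tissue stood for that gene. This gave 60 genes of the 22911 matched symbols on the array, with 21 Gst, 3 Mgst, 15 Ugt and 21 Sult genes. Another 8 symbols of the same families, 6 of the Ugt1a genes besides Gsta1 and Ugt2a2, had no matched probe and were not analysed here. The 24 arrays hold 3 young mice, at 10 weeks, and 3 aged ones, at 90 weeks, for each of 4 tissues: kidney, liver, lung and white adipose tissue, abbreviated WAT. All are males of the strain C57BL/6J, with no transgene, deletion or treatment named in the labels, and the aged livers carry the numbers 1, 2 and 4. They do not give the fat depot or say whether 1 mouse gave several tissues.

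Glutathione S-transferases (Gst, and the membrane-bound Mgst) join glutathione to electrophiles and reduce peroxides. UDP-glucuronosyltransferases (Ugt) transfer glucuronic acid from UDP-glucuronate to bilirubin, bile acids, steroids and drugs, and sulfotransferases (Sult) transfer sulfate from the donor PAPS to phenols, steroids and amines. The products dissolve better in water and leave through bile or urine. Liver is the main site of these reactions, and the proximal tubule of the kidney carries many of the same enzymes.

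Values are log2 signals relative to the 75th percentile of each array, so that 0 is the level of a fairly bright probe. The dimmest signal still called well above background lay between -6.11 and -4.48 on the 24 arrays. A probe entered the test of a tissue where 3 or more of its 6 arrays called it well above background. By that filter 49 of the 60 genes were tested in liver, 41 in lung, 50 in kidney and 39 in WAT, 35 of them in all 4 tissues. Sult2a4, Sult2a5, Sult3a1, Sult3a2, Sult6b1 and Sult6b2 passed in no tissue. A few genes passed through the 3 aged arrays alone, Sult2a2 and Sult2a6 in liver, Sult2a6 in lung and Sult2a2, Sult2a3 and Sult2a6 in kidney. For such a gene the filter fixed the direction of any call. No gene passed through the young arrays alone.

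Between 58.6% and 71.1% of the probes of an array were well above background, and arrays of 1 group correlated at 0.933 to 0.996, with the lowest value among the young WAT samples. The labelled tissues carried their own markers: all 5 hepatocyte, 5 lung epithelium, 5 proximal tubule and 5 adipocyte markers were above background in the young mice of the matching tissue. Each tissue lay on a slide of its own that held both ages, so tissue and slide cannot be told apart. Several samples stood apart. The WAT of young mouse 1 read 9.69 for the summed epididymis markers (Lcn5, Lcn8, Lcn9, Adam7 and Spint4, of which Lcn9 alone was not above background), while the other WAT samples read -4.02 to 0.45. The lung of aged mouse 1 read 7.73 for the summed hepatocyte markers (Alb, Ttr, Apoa1, Serpina1c and Cps1, all above background there) against -1.93 to 3.02 in the other lungs. Counts of genes called within a tissue and the tests between tissues are given with and without these samples and the liver of aged mouse 2.

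In young mice most of these genes had their highest level in liver. The comparison asked which tissue carried each enzyme, over the 54 genes that passed in at least 1 tissue, each by a single probe. The highest mean lay in liver for 35 genes, in kidney for 10, in WAT for 7 and in lung for 2. Of all entries 37.6% were highest in liver, 21.9% in kidney, 20.2% in WAT and 20.4% in lung. A gene was called when it exceeded each of the other tissues at a limma adjusted p under 0.05, which held for 25 genes in liver, 7 in kidney, 4 in WAT and 0 in lung. Over all 34167 entries of the array the corresponding shares called were 19.3%, 9.18%, 6.99% and 9.84%. These shares depend on the scaling: with spike-in scaling 17 genes were called in liver and 29 were highest there. Of all entries 11.3% were then highest in liver and 56.2% in lung. Ugt genes peaked in liver (10 genes, 6 called) or in kidney (5 genes, 3 called) and none of them in lung or WAT. Of the Gst genes 14 were highest in liver (11 called), and of the Sult genes 10 (7 called).

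**Figure D1:**
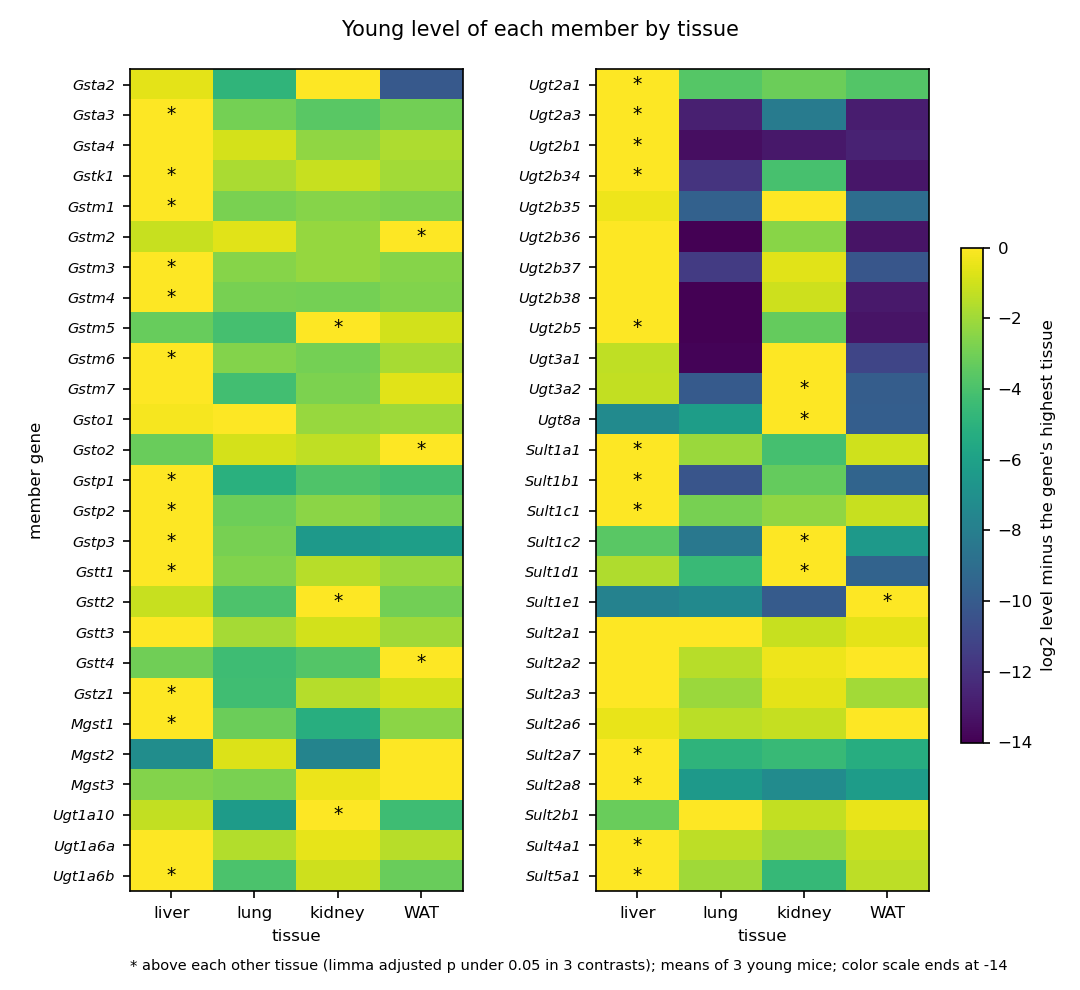
Heat map of the young level of 54 conjugating enzyme genes in liver, lung, kidney and WAT, drawn as the mean log2 level of 3 mice minus that of the gene's highest tissue (yellow, 0; darker, lower). Stars mark the 25 genes called in liver, 7 in kidney and 4 in WAT; no Ugt2 gene was above background in all 3 young lungs apart from Ugt2a1, or in all 3 young WAT samples apart from Ugt2a1 and Ugt2b37.

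Ugt2b1, a steroid and drug glucuronidating enzyme, showed the widest gap. Its young level was 5.58 ± 0.05 (SD, n = 3) in liver, whereas no young lung, kidney or WAT sample was well above background, and liver exceeded the next tissue at least 2070-fold. Ugt2a3, which acts on bile acids, read 5.73 ± 0.03 in liver and -2.42 ± 0.04 in kidney (adjusted p = 2.09e-06), with lung and WAT below background in all young samples. Both transcripts were far higher in liver than elsewhere, with kidney next for Ugt2a3. Ugt2b34 followed the same order, at 6.52 ± 0.11 in liver and 2.44 ± 0.05 in kidney. Among the sulfotransferases of bile acids and steroids, Sult2a8 read 6.96 ± 0.04 in liver and 0.71 ± 0.69 in WAT, the next tissue (adjusted p = 5.82e-07). Sult2a7 read -0.90 ± 0.47 in liver and -5.45 ± 0.20 in kidney.

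Kidney was highest for members of the Ugt1, Ugt3, Ugt8 and Sult1 families. Ugt8a, which makes the myelin lipid galactosylceramide, read 1.98 ± 0.09 in kidney, -4.25 ± 0.18 in lung and below background in liver and WAT (adjusted p = 1.60e-10). Sult1c2 read 4.22 ± 0.03 in kidney and 0.65 ± 0.14 in liver. Sult1d1, which sulfates catecholamines, read 5.52 ± 0.08 in kidney and 3.83 ± 0.23 in liver. These 3 genes passed against each other tissue. Ugt1a10 also passed, at 3.15 ± 0.24 against 1.85 ± 0.25 in liver. Ugt3a1, which uses another sugar than glucuronic acid, read 6.73 ± 0.06 in kidney and 5.41 ± 0.17 in liver, and did not pass in the fit of all arrays (adjusted p = 0.164).

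WAT carried the estrogen sulfotransferase Sult1e1, at 3.92 ± 0.51 against -3.43 ± 0.37 in lung, -3.86 ± 0.21 in liver and -6.05 ± 0.90 in kidney (adjusted p = 0.000245). Gstt4 was above background in WAT only, at -3.70 ± 1.45, at least 1.80-fold over the next tissue. Gsto2 (-0.79 ± 0.12 in WAT, -1.71 ± 0.11 in lung) and Gstm2 (6.41 ± 0.57 in WAT, 5.79 ± 0.07 in lung) exceeded lung by less than 1 log2 unit. Without the WAT of young mouse 1, Gsto2 and Gstm2 no longer passed and Mgst3 did, which left 3 genes called in WAT. Mgst2 (3.04 ± 0.19 in WAT, 2.29 ± 0.12 in lung) was not called between these neighbours (adjusted p = 0.468). Lung led for Gsto1, at 6.37 ± 0.09 beside 6.17 ± 0.14 in liver (adjusted p = 0.487), and for Sult2b1, at -1.22 ± 0.01 beside -1.70 ± 3.34 in WAT (adjusted p = 0.684). The order of these neighbours was not resolved by the test with all samples. The WAT mean of Sult2b1 rested on young mouse 1 (2.13, against -4.01 and -3.23 in the others), and without that sample lung exceeded kidney, then the next tissue, by 1.31 for Sult2b1 (adjusted p = 0.000124), the 1 gene then called in lung. When mouse 3 of every tissue was left out, the kidney count fell from 7 to 2, and without mouse 1 of every tissue the WAT count fell from 4 to 2.

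The effect of age was then compared within each tissue, aged against young. Aged kidney showed the most calls, with 35 genes lower and 10 higher, 3 of the 10 having passed the filter through the aged arrays alone. Aged liver showed 14 lower and 0 higher. Lung showed 3 lower and 1 higher, the latter also through the aged arrays alone, and WAT 0 in either direction. Of all entries, 42.6% were called lower and 20.6% higher in kidney and 17.0% and 10.5% in liver. The shares were 2.89% and 2.72% in lung and 0.579% and 2.01% in WAT. Few entries of any kind were called in WAT, so 0 calls do not show that age had no effect there. These calls use limma within the tissue with Benjamini-Hochberg adjustment over all its entries and an adjusted p under 0.05. In RNA from whole tissue, fewer cells of a type and less RNA per cell cannot be told apart. P-values measure the spread between the 3 mice of a group.

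**Figure D2:**
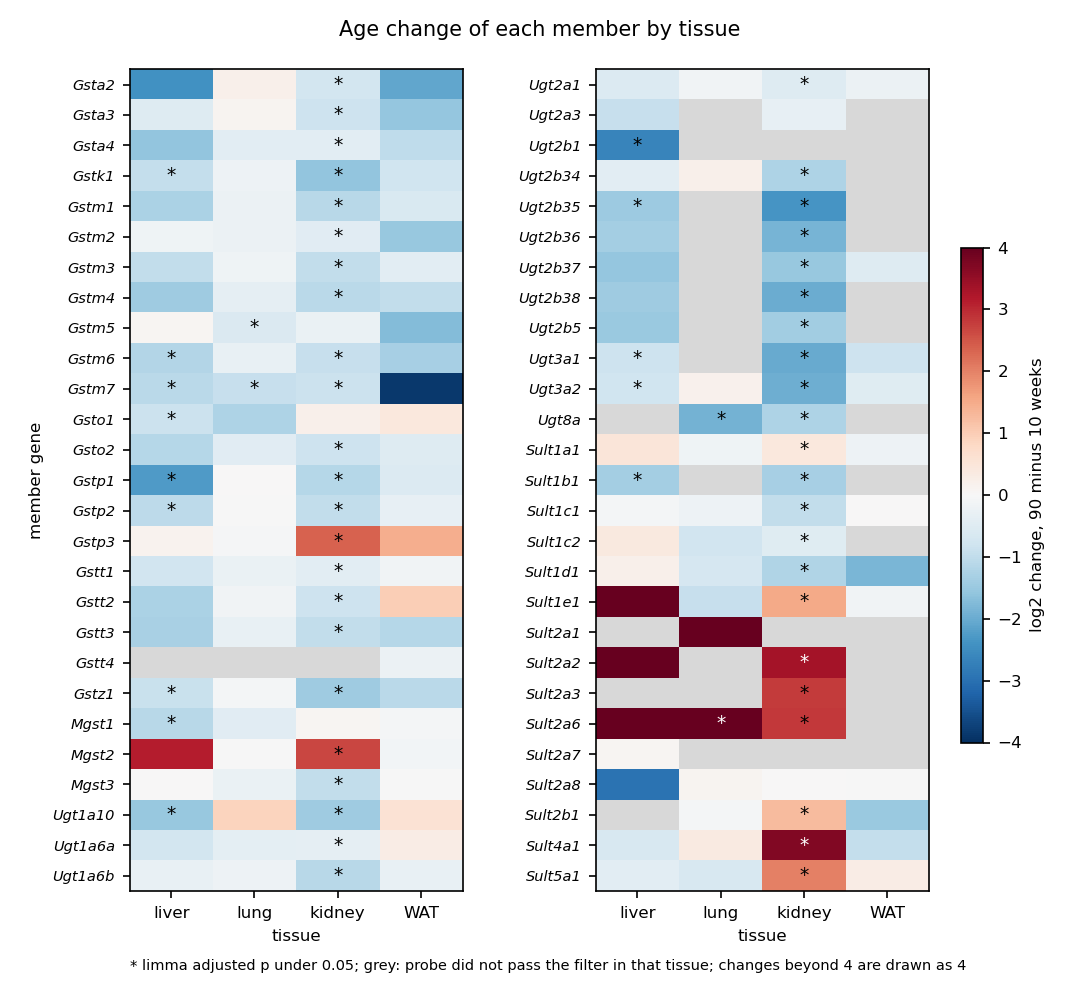
Heat map of the log2 change from 10 to 90 weeks of each gene in liver, lung, kidney and WAT (blue, lower in aged mice; red, higher; grey, probe did not pass the filter; changes beyond 4 are drawn as 4). Stars mark an adjusted p under 0.05; the kidney column holds 35 blue and 10 red starred genes, the liver column 14 blue ones and the WAT column none.

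In kidney the Ugt genes fell together. Of 14 Ugt genes tested 13 were lower in aged mice and 0 higher, and the remaining one, Ugt2a3, read -2.42 on average in young and -2.74 in aged kidneys (adjusted p = 0.319). The 13 changes lay between -2.36 and -0.36 on the log2 scale. Probes of close copies within a family may read one another, which was not tested. Counts of Ugt and Gst genes in any tissue therefore need not be counts of separate changes. For comparison, 42.6% of all 31505 kidney entries were called lower and 20.6% higher, and the groups did not overlap in 70.7% of them, against 47 of the 50 genes of these families. The median change was -0.84 over these 50 genes and -0.23 over all entries.

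**Figure D3:**
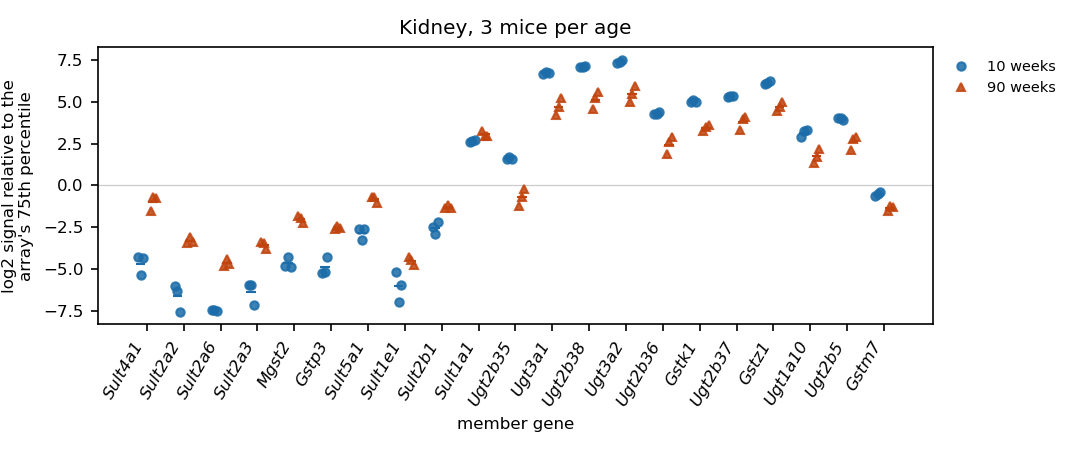
Log2 signal of 21 genes in each of 3 young (blue circles) and 3 aged (orange triangles) kidneys, with bars at the group means. The 10 genes on the left were higher and the 11 on the right lower in aged mice, and no gene shown has overlapping groups.

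Ugt2b35, a steroid glucuronidating enzyme of the Ugt2b family, read 1.58, 1.72 and 1.59 in the young kidneys and -1.25, -0.71 and -0.22 in the aged ones. Ugt2b38 read 7.10, 7.11 and 7.17 in young and 4.57, 5.23 and 5.58 in aged kidneys. Ugt2b36 read 4.30, 4.30 and 4.37 in young and 1.85, 2.61 and 2.88 in aged kidneys. The young kidneys were nearly equal for each of these, and all 3 aged kidneys lay below them. Ugt2b35 fell by 2.36 on the log2 scale (SE 0.25, adjusted p = 0.000586). Ugt2b38 fell by 2.0 (SE 0.25, adjusted p = 0.000927), and Ugt2b36 fell by 1.87 (SE 0.26, adjusted p = 0.00136). Ugt2b37 and Ugt2b5 fell by 1.53 and 1.40.

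Both Ugt3a genes, whose enzymes use sugars other than glucuronic acid, fell about as far. Ugt3a1 read 6.66, 6.78 and 6.75 in young and 4.22, 4.67 and 5.21 in aged kidneys, a change of -2.03 (SE 0.24, adjusted p = 0.000822). Ugt3a2 read 7.35, 7.41 and 7.53 in young and 5.01, 5.47 and 5.94 in aged kidneys, a change of -1.96 (SE 0.23, adjusted p = 0.000772). Ugt1a10 read 2.88, 3.28 and 3.29 in young and 1.36, 1.69 and 2.18 in aged kidneys and changed by -1.41 (SE 0.23, adjusted p = 0.00271). For each of these Ugt genes aged mouse 1 had the lowest value and aged mouse 3 the one nearest to the young mice. The Ugt1a genes share their last exons, so a Ugt1a probe there reads several of them together. Ugt8a fell by 1.23 and Ugt2b34 by 1.25.

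The Gst genes of kidney fell in nearly every class. Of 20 tested, 17 were lower, 1 was higher and 2, Gstm5 and Gsto1, were not called. The enzyme Gstk1, of mitochondria and peroxisomes, read 4.98, 5.12 and 5.00 in young and 3.24, 3.47 and 3.62 in aged kidneys, a change of -1.59 (SE 0.12, adjusted p = 0.000192). Gstz1, which isomerizes maleylacetoacetate in tyrosine breakdown, read 6.07, 6.14 and 6.22 in young and 4.46, 4.69 and 4.98 in aged kidneys, a change of -1.43 (SE 0.14, adjusted p = 0.000485). Neither gene had overlapping groups. Of the 7 mu class genes (Gstm) 6 were lower, and Gstm7 fell by 0.85 (SE 0.12, adjusted p = 0.00167), from -0.65, -0.52 and -0.38 to -1.56, -1.23 and -1.29. The 3 alpha class genes (Gsta) and the 3 theta class genes (Gstt) tested were lower as well. The 2 probes of Gstm6 disagreed in kidney, at -0.93 for the brighter and 1.51 for the other, so its call depends on the probe.

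Against this direction stood Gstp3, a pi class gene dim in kidney. It read -5.24, -5.16 and -4.30 in young and -2.61, -2.42 and -2.57 in aged kidneys and rose by 2.37 (SE 0.26, adjusted p = 0.000599), while Gstp1 and Gstp2 fell by 1.13 and 0.99. The membrane-bound enzymes split. Mgst2, which can form a leukotriene from glutathione, read -4.82, -4.30 and -4.89 in young and -1.81, -1.93 and -2.24 in aged kidneys and rose by 2.68 (SE 0.19, adjusted p = 0.000184). Mgst3 fell by 1.00, and Mgst1 changed by 0.07 (adjusted p = 0.626).

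The sulfotransferases made up 8 of the 10 genes that were higher in aged kidney. Of 13 tested, 8 were higher and 4 lower, and 3 of the 8 had passed through the aged arrays alone. The brain-enriched Sult4a1 read -4.30, -5.38 and -4.36 in young and -1.54, -0.71 and -0.74 in aged kidneys and rose by 3.69 (SE 0.36, adjusted p = 0.000471). Sult5a1 read -2.60, -3.28 and -2.62 in young and -0.72, -0.72 and -1.03 in aged kidneys and rose by 2.01 (SE 0.21, adjusted p = 0.000543). These are values of its brighter probe, and the other of its 2 probes rose by 1.07. All aged kidneys lay above all young ones for both genes, though Sult4a1 was well above background in 2 of the 3 young kidneys. Sult1e1 rose by 1.52 (SE 0.44, adjusted p = 0.0234) and was above background in 1 of 3 young kidneys. The cholesterol sulfotransferase Sult2b1 rose by 1.25 (SE 0.18, adjusted p = 0.00177), and the phenol sulfotransferase Sult1a1 rose by 0.41 (SE 0.11, adjusted p = 0.0191).

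The enzymes of the Sult2a genes sulfate bile acids and hydroxysteroids. Sult2a8 was above background in every kidney and read -0.30 on average in young and -0.28 in aged ones (adjusted p = 0.85). Sult2a2, Sult2a3 and Sult2a6 were not above background in any young kidney and were so in all aged ones. Sult2a2 read -3.45, -3.10 and -3.39 in the aged kidneys and was at least 4.35-fold higher. For Sult2a3 the aged kidneys read -3.39, -3.45 and -3.80 and the bound was at least 3.71-fold higher, and Sult2a6 was at least 1.71-fold higher. All 3 had passed the filter through the aged arrays alone, which fixed the direction of their calls, so their tests add no support. A bound takes the young mice at the lowest signal called above background on each array. These genes are close copies whose probes may read one another. Lower in aged kidney were Sult1b1 (thyroid hormones), Sult1c1, Sult1c2 and Sult1d1, by -1.32 to -0.47.

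The promoters of the genes called with the largest decreases are shown because stress factors such as NRF2 are known to act on genes of these families. Each line gives the 150 bases before the transcription start from RefSeq on the build GRCm38.p6, 5′ to 3′ on the strand of the gene; Ugt2b35, Ugt3a1 and Ugt2b38 had the largest decreases in kidney, and Ugt2b1 and Gstp1 those in liver. Capitals mark matches, on either strand, to 3 motifs: TGACNNNGC (a core form of the antioxidant response element), TGAGTCA (the AP-1 site) and TATAAA (the TATA box).
Ugt2b35 (chr5:87000710-87000859, plus strand): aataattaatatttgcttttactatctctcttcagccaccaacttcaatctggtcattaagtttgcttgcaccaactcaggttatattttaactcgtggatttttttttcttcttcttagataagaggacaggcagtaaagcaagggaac
Ugt3a1 (chr15:9279679-9279828, plus strand): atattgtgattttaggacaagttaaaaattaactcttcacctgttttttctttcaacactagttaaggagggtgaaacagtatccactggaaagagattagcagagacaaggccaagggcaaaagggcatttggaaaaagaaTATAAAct
Ugt2b38 (chr5:87424204-87424353, minus strand): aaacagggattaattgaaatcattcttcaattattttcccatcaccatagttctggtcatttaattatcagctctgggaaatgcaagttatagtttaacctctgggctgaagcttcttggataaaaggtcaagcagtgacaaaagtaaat
Ugt2b1 (chr5:86926504-86926653, minus strand): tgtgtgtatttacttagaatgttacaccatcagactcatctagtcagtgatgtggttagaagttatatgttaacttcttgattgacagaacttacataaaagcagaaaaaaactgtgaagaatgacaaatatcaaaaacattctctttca
Gstp1 (chr19:4037913-4038062, minus strand): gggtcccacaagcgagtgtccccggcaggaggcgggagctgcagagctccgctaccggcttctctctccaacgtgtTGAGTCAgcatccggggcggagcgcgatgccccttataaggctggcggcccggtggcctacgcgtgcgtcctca

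In these windows Ugt3a1 held a TATA box at bases 8 to 3 before the start. Gstp1 held an AP-1 site at bases 74 to 68. The 3 Ugt2b promoters held none of these letters. Promoters were listed for 52 of the 60 genes. TGACNNNGC stood in 4 of them (7.69%), those of Gsta3, Gstm5, Gstm7 and Mgst1, and in 7.74% of 27025 genes. TGAGTCA stood in 3 (5.77%), those of Gstp1, Gstp2 and Mgst2, and in 3.32% of all genes. TATAAA stood in 8 (15.4%) and in 8.89% of all genes. A match describes letters, not a bound site, and no match says only that these letters are not in the window.

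Many of the genes lie next to one another. Of the genes in 1 stretch of chromosome 5, the 9 Ugt2 genes and next to them Sult1b1, Sult1d1 and Sult1e1, 11 were tested in kidney, where 9 were lower and Sult1e1 was higher. Of the 7 Gstm genes on chromosome 3, 6 were lower. On chromosome 19 Gstp1 and Gstp2 were lower and their neighbour Gstp3 was higher.

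Genes that supply the 3 cosubstrates were read beside the enzymes in kidney, where 42.6% of all entries were lower. All 4 genes of the UDP-glucuronate list were lower, among them Ugdh, which makes UDP-glucuronate (-1.14, SE 0.14, adjusted p = 0.000849), and Ugp2 (-0.82). All 5 PAPS genes tested were lower, among them the PAPS synthases Papss1 (-1.26, adjusted p = 0.000136) and Papss2 (-0.98). Of 12 glutathione genes 8 were lower, 2 were higher and 2 were not called: Gclc and Gclm, the subunits of the enzyme that starts glutathione synthesis, changed by -1.25 and -1.21 and Gss by -1.34, while Ggt5 and Ggt7 rose by 1.43 and 1.18. Among 14 other conjugating enzymes, such as methyl-, acetyl- and glycine transferases, 13 were lower and 1 was higher, the nicotinamide methyltransferase Nnmt at 3.28 (SE 0.20, adjusted p = 0.000101). Enzymes that split conjugates went both ways, with Gusb (beta-glucuronidase) and the sulfatase Arsa higher by 0.34 and 0.83 and the sulfatases Arsb and Arsg lower by -1.12 and -1.91.

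Markers of cell types moved with these changes in kidney. The summed level of the 5 proximal tubule markers (Slc34a1, Lrp2, Slc5a2, Slc22a6 and Kap) was 10.07 to 10.24 in young and 8.87 to 9.35 in aged kidneys, and 5 of 5 were lower. That of the 4 distal nephron markers was 8.74 to 9.07 in young and 7.21 to 8.32 in aged kidneys, with 3 of 4 lower. The 5 macrophage markers summed to 4.37 to 4.56 in young and 6.05 to 6.58 in aged kidneys, and the 5 B and plasma cell markers to -0.79 to -0.45 and 5.58 to 6.33. All 10 of these were higher. Aged mouse 1 had the lowest tubule values and aged mouse 3 the ones nearest to young mice. The Ugt genes given above with a value for each kidney had that order. Ugt2a1, Ugt1a6a and Ugt2b34, also called lower, did not, and Ugt2a1 read -2.03, -2.18 and -2.23 in aged mice 1, 2 and 3. The part of cell composition in the changes above was not tested.

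With arrays scaled to the 350 spike-in spots, 12 genes of the families were higher and 28 lower in kidney, while over all entries 29.9% were higher and 15.5% lower and the median change moved to 0.14. The median over the 50 genes was then -0.47. All 21 kidney genes named with values by rule kept their direction under each alternative run. For Sult2a2, Sult2a3 and Sult2a6 the filter had fixed that direction, and the rule took only genes already called. In a fit of all 24 arrays, which pools the spread of the tissues, 5 were higher and 17 lower.

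In liver 14 of 49 genes tested were lower in aged mice and 0 higher by limma, with 25 lower and 3 higher at an unadjusted p under 0.05. Over all 27905 liver entries 17.0% were lower and 10.5% higher after adjustment. At an unadjusted p under 0.05, 8040 of all entries were lower and 4156 higher. The median change was -0.90 over the 49 genes and -0.20 over all entries, and the groups did not overlap for 32 genes, against 49.9% of all entries. By class, 7 of 20 Gst, 1 of 3 Mgst, 5 of 14 Ugt and 1 of 12 Sult genes tested were lower.

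**Figure D4:**
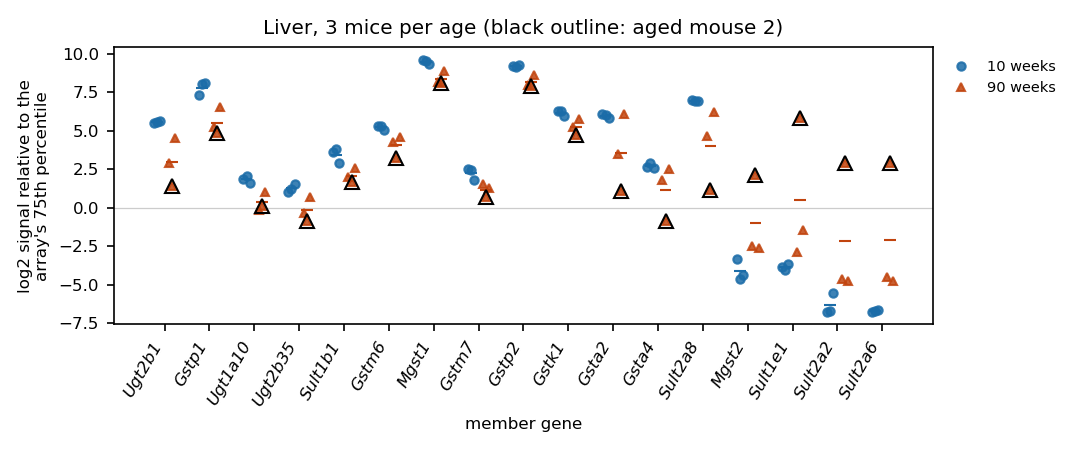
Log2 signal of 17 genes in each of 3 young (blue circles) and 3 aged (orange triangles) livers, with bars at the group means and aged mouse 2 outlined in black. The 10 genes on the left were called lower; for the 7 on the right, none of them called, aged mouse 2 had the highest or the lowest value of the aged mice, for example 5.85 for Sult1e1.

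Ugt2b1 read 5.53, 5.57 and 5.64 in young livers and 2.90, 1.42 and 4.54 in aged mice 1, 2 and 4, a change of -2.63 (SE 0.69, adjusted p = 0.0336). Gstp1, a pi class enzyme that conjugates electrophiles, read 7.30, 8.02 and 8.12 in young and 5.24, 4.86 and 6.52 in aged livers, a change of -2.27 (SE 0.45, adjusted p = 0.0148). Its neighbour Gstp2 fell from 9.20, 9.16 and 9.26 to 7.95, 7.89 and 8.61 (-1.06, SE 0.22, adjusted p = 0.0177). In all 3 the aged livers lay below the young ones, with aged mouse 2 lowest and aged mouse 4 nearest to the young. The membrane-bound Mgst1 read 9.63, 9.51 and 9.37 in young and 8.19, 8.09 and 8.87 in aged livers (-1.11, SE 0.24, adjusted p = 0.0185). Ugt1a10 changed by -1.51 (SE 0.32, adjusted p = 0.0179), Ugt2b35 by -1.45 (SE 0.39, adjusted p = 0.0356) and Sult1b1 by -1.36 (SE 0.33, adjusted p = 0.0257). Gstm6, Gstm7 and Gstk1 changed by -1.17, -1.09 and -0.94. The other genes called were Gsto1, Gstz1, Ugt3a1 and Ugt3a2, between -0.90 and -0.81.

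For several liver genes the aged mice lay far apart. Sult1e1 read -3.88, -4.06 and -3.64 in young livers and -2.88, 5.85 and -1.47 in aged ones. Sult2a2 was not above background in any young liver and read -4.60, 2.89 and -4.76 in aged ones, and Sult2a6 read -4.53, 2.92 and -4.74, nearly the same values, as close copies may. Mgst2 read -2.51, 2.13 and -2.60 in aged livers, where young ones read -3.31, -4.66 and -4.39. For each of them aged mouse 2 lay far above the other aged mice, and the change was not called (adjusted p = 0.145, 0.141, 0.109 and 0.0951). All aged livers lay above all young ones for Sult1e1 and Mgst2. For Sult2a2 and Sult2a6 that order was not established, since aged mice 1 and 4 lay below the mean of the lowest signals called above background in the young livers, -4.55, apart from Sult2a6 in aged mouse 1 at -4.53. In the opposite direction, Sult2a8 read 7.01, 6.95 and 6.93 in young and 4.67, 1.14 and 6.21 in aged livers (adjusted p = 0.0911), and Gsta2 read 6.07, 6.04 and 5.85 in young and 3.47, 1.12 and 6.09 in aged livers (adjusted p = 0.131).

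The count of calls depended on single livers. Without aged mouse 2, 5 genes were called higher and 9 lower. Of the 5, Mgst2 rose by 1.56, Sult1c2 by 1.20 and Sult1e1 by 1.69. Sult2a2 and Sult2a6 have no fold then, because the 2 remaining aged livers, at means of -4.68 and -4.64, did not exceed the background limit of the young ones. Without aged mouse 4, 27 were lower, among them Ugt2b5, Ugt2b36, Ugt2b37 and Ugt2b38 at -2.18 to -1.86. Without aged mouse 1 the count of lower genes was 4, and without young mice 1, 2 or 3 it was 1, 0 or 9. Scaled to the spike-in spots, where the median of all entries was -0.01, 3 genes were lower (Ugt2b1, Gstp1 and Ugt1a10) and 4 higher (Mgst2, Sult1e1, and Sult2a2 and Sult2a6, which no young liver measured). Of all entries 2.82% were then lower and 10.3% higher.

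Genes known to differ between male and female mouse livers, as Gstp1 and the Sult2a genes do, were read in the same mice. Of 10 male-predominant genes 6 were lower, among them the steroid dehydrogenase gene Hsd3b5, which read 5.91, 6.13 and 5.35 in young and -2.73, -5.55 and 2.76 in aged livers (-7.64, adjusted p = 0.0268). Of 10 female-predominant genes 4 were higher and 1 lower, among them Cyp2b9, which read 4.28, 4.39 and 3.86 in young and 6.06, 7.52 and 7.49 in aged livers (2.85, adjusted p = 0.00589). Summed, the male-predominant list read 11.45 to 11.56 in young livers and 10.35, 10.11 and 10.83 in aged mice 1, 2 and 4. Ugt2b1 and Gstp1 had the same order, while Ugt1a10, Ugt3a1 and Ugt3a2, also called lower, were lowest in aged mouse 1. The female-predominant list read 9.70 to 9.92 in young livers and 8.88, 9.21 and 10.03 in aged ones, lower in 2 of the 3 aged mice although 4 of its genes were called higher. The hepatocyte markers summed to 11.49 to 11.71 in young and 10.92 to 11.18 in aged livers, with 2 of 5 lower, and the 4 periportal hepatocyte markers to 9.48 to 9.86 and 8.0 to 8.91, with 3 of 4 lower. The macrophage markers summed to 5.45 to 5.89 and 7.52 to 7.74, with 5 of 5 higher. The part of any of these in the changes of the conjugating enzymes was not tested.

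Few genes of the cosubstrate lists were called in liver. By limma 1 of 4 UDP-glucuronate genes was lower (Slc35d2, a nucleotide sugar transporter, -0.98, adjusted p = 0.0456), and 1 of 5 PAPS genes was lower (Papss1, -0.79, adjusted p = 0.0188). Of 11 glutathione genes 0 were lower and 1 higher (Ggt5, 1.94, adjusted p = 0.00226), with 2 lower and 2 higher at an unadjusted p under 0.05. Of 14 other conjugating enzymes 5 were lower, among them Acsm2 (-3.24, adjusted p = 0.0051), and 0 higher.

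In lung 3 of 41 genes tested were lower and 1 was higher in aged mice, where 2.89% and 2.72% of all 30327 entries were called. The median change was -0.21 over the 41 genes and -0.08 over all entries, and groups did not overlap for 16 genes, against 35.8% of all entries. Gstm7 read -1.80, -1.92 and -2.24 in young and -3.01, -2.80 and -2.92 in aged lungs and changed by -0.92 (SE 0.14, adjusted p = 0.0249). Gstm5 read 1.96, 1.95 and 1.78 in young and 1.24, 1.33 and 1.37 in aged lungs and changed by -0.58 (SE 0.10, adjusted p = 0.0295). Both mu class genes had separate groups. Ugt8a read -4.10, -4.18 and -4.45 in young and -6.82, -5.94 and -5.69 in aged lungs, where 1 of 3 was above background, and changed by -1.90 (SE 0.30, adjusted p = 0.0280).

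Sult2a6 was above background in all aged and no young lungs. It read -4.53, -0.88 and -3.52 in aged mice 1, 2 and 3, at least 7.23-fold above the young lungs, with aged mouse 2 highest. It had passed the filter through the aged arrays alone, which fixed the direction of its call, so its test adds no support. The close copy Sult2a1 read -7.54, -6.53 and -5.49 in young and -3.57, 0.34 and -2.59 in aged lungs and was not called (adjusted p = 0.0667). The largest change without a call among the Gst genes was that of Gsto1, which reduces oxidized vitamin C, from 6.36, 6.47 and 6.29 to 4.66, 4.99 and 5.73 (-1.24, SE 0.27, adjusted p = 0.0573).

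Transcripts of other tissues varied between the lungs. The 5 hepatocyte markers summed to 7.73, 2.35 and 0.32 in aged mice 1, 2 and 3, and Ugt2b34, a liver and kidney gene, read -0.37 in aged mouse 1 and -7.48 and -7.75 in the others. The 5 adipocyte markers summed to 5.21 to 5.96 in young and 2.96 to 4.66 in aged lungs, with Adipoq and Plin1 below background in aged mice 1 and 2. Heart muscle markers (Myh6, Tnnt2 and Actc1) summed to 5.61 to 7.08 and 3.18 to 6.27. The 4 T cell markers summed to 2.92 to 3.03 in young and 3.71 to 4.18 in aged lungs, with 3 of 4 higher, and the leukocyte marker Ptprc read 2.18 to 2.33 and 3.49 to 3.67 and was called higher. Without aged mouse 1, Gstm7 (-0.87) and Ugt8a (-1.57) were lower, Sult2a6 was at least 12.4-fold higher, and Gstm5 was not called. Ugt2b34 was then called lower too, with neither remaining aged lung above background. Without young mouse 1, or young mouse 2, 0 genes were called in either direction. Without young mouse 3, 1 was lower, and Sult2a6 was also not called without aged mouse 3. The part of the other tissues and cell types in these values was not tested.

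In WAT limma called 0 of 39 genes in either direction, with 12 lower and 2 higher at an unadjusted p under 0.05. Over all 30063 entries 0.579% were lower and 2.01% higher after adjustment. At an unadjusted p under 0.05, 2833 of all entries were lower and 2963 higher. The median change was -0.47 over the 39 genes and -0.05 over all entries, and 33 of the 39 changes lay below 0. Groups did not overlap for 15 genes, against 28.8% of all entries, and all 15 were Gst genes. They included all 7 mu class genes, which were lower in every aged mouse than in every young one. Probes of such related genes may read one another, so these need not be 7 separate changes.

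**Figure D5:**
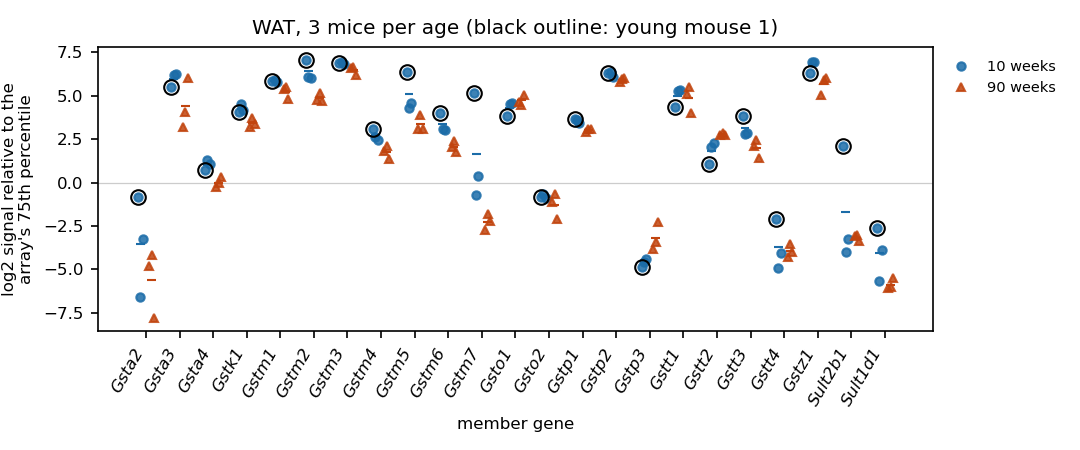
Log2 signal of the 21 Gst genes, Sult2b1 and Sult1d1 in each of 3 young (blue circles) and 3 aged (orange triangles) WAT samples, with bars at the group means and young mouse 1 outlined in black. Young mouse 1 lay far above the other young mice for Gstm7 and Sult2b1, and no change shown was called.

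Gstm2 read 7.07, 6.11 and 6.05 in young and 4.77, 5.19 and 4.72 in aged WAT, a change of -1.51 (SE 0.33, adjusted p = 0.0772). Gsta4, which conjugates aldehydes from oxidized lipids, read 0.70, 1.31 and 1.05 in young and -0.28, -0.04 and 0.30 in aged WAT, a change of -1.03 (SE 0.24, adjusted p = 0.0957). Gstm6 read 4.0, 3.10 and 3.03 in young and 2.05, 2.37 and 1.75 in aged WAT (-1.32, SE 0.32, adjusted p = 0.102), and its other probe changed by -3.1. The groups were separate for all 3, and none passed. Gstm7 read 5.16, -0.70 and 0.39 in young WAT and -2.72, -1.82 and -2.22 in aged WAT, and Sult2b1 read 2.13, -4.01 and -3.23 in young WAT, so that young mouse 1, the sample with epididymis transcripts, stood far above the other young mice for both. Without it 0 genes were called in either direction. A fit of all 24 arrays called 9 lower (Gsta3, Gstk1, Gstm2, Gstm5, Gstm6, Gstm7, Gstt3, Gstz1 and Sult1d1) and 1 higher (Gstp3).

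The 5 adipocyte markers summed to 9.93 to 10.39 in young and 10.02 to 10.28 in aged WAT, with 0 of 5 called by limma and 0 at an unadjusted p under 0.05. The B and plasma cell markers summed to -1.02 to 1.24 in young and 5.22 to 5.81 in aged WAT, with 5 of 5 higher, and the macrophage markers to 5.25 to 6.83 and 7.80 to 8.92, with 2 of 5 higher. The hepatocyte markers summed to 2.39 to 4.63 in young and -0.78 to 0.82 in aged WAT. Of the 4 tested, 1 was called lower by limma, and 4 were lower at an unadjusted p under 0.05. The part of any of these in the values of the Gst genes was not tested.

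Across tissues, 11 genes were lower in both liver and kidney, which is 78.6% of the 14 lower in liver and 31.4% of the 35 lower in kidney. Over all entries the corresponding shares were 72.4% and 25.6%, so the members' overlap lay near that of all entries. Lung and kidney shared 2 lower genes (66.7% of 3 and 5.71% of 35), and liver and lung shared 1 (7.14% and 33.3%), beside 39.9% and 2.60%, and 2.76% and 15.0%, of all entries. That gene, Gstm7, was lower in all of liver, lung and kidney. No gene was called in opposite directions in any pair of tissues. The test of the difference itself, in a fit of all 24 arrays over the 54 genes, called 5 genes between liver and lung (12.5% of all entries), 4 between liver and kidney (8.63%), 9 between liver and WAT (14.7%), 10 between lung and kidney (18.8%), 3 between lung and WAT (2.89%) and 9 between kidney and WAT (20.5%). Of these, 3, 4, 8, 9, 2 and 7 genes had passed the filter in both tissues, and for the others the change in 1 tissue was not measured above background often enough to be read. Sult4a1 and Sult5a1 differed between kidney and each other tissue, and Gstp1 between liver and both lung and WAT. Without aged liver 2 the counts were 6, 6 and 6 between liver and lung, kidney and WAT. Without aged lung 1 they were 4, 11 and 3 between lung and liver, kidney and WAT, and without young WAT 1 they were 9, 4 and 9 between WAT and liver, lung and kidney.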

How the data were processed

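RNA from 24 mouse tissue samples was measured on Agilent arrays in 1 color (Cy3). Total RNA was isolated with an RNeasy kit and labeled with a Quick Amp kit. The intensity values were produced by the authors: per the file headers, Agilent Feature Extraction 11.0.1.1 wrote a processed signal, corrected for background and not scaled between arrays, for each of 62976 spots of a mouse design on mm9, although the methods name a human kit. Each group holds 3 arrays, which limits the precision.

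Accessions without their version were matched to RefSeq symbols of GRCm38.p6, which named 32994 of 56605 probes (58.3%). Flagged spots (1841 in all) were removed, spots of a probe averaged, and the 75th percentile of each array subtracted from the log2 signal. Ages were compared within a tissue by limma 3.58.1 in R 4.3.3. Tissues were compared in 1 fit of all 24 arrays, treated as independent. Up to 10 genes per direction and tissue among those called with separate groups, genes called in 3 tissues, and the 5 largest level gaps per tissue were named; other genes given with values were chosen after their values were seen. The genes and lists were chosen with earlier results of these data known. The scripts were tested on simulated data.

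Alternatives covered background correction (normexp, offset 16), quantile, median and spike-in scaling, the filter, the mean of probes, all arrays in 1 fit, a replicate block, the methods' t-test, and each mouse left out. Median centring and the tests between tissues without single arrays were added after seeing the data.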

Additional observations from a re-analysis of the deposited data

Results flagged for a closer look

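The age changes below differed between tissues by a test of the difference itself, an interaction term in the limma fit of all 24 arrays with Benjamini-Hochberg adjustment over all entries. A gene is listed where its age change was also called in at least 1 of the tissues of the pair and the gene had passed the filter in both. Each difference is the first tissue minus the second, in log2 units, and the changes are those of the single probe used for all tissues.

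Between liver and lung all listed genes were called lower in liver and none was called in lung. Gstp1 changed by -2.27 in liver and by 0.01 in lung, a difference of -2.28 (adjusted p = 0.00272). For Gstp2 the changes were -1.06 in liver and -0.02 in lung, which differed by -1.04 (adjusted p = 0.00876). The change of Ugt1a10 was -1.51 in liver against 0.89 in lung, with a difference of -2.40 (adjusted p = 0.0154).

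Between liver and kidney the genes were those that rose in kidney, besides Mgst1, which fell in liver. Gstp3 changed by 0.14 in liver and by 2.37 in kidney, a difference of -2.23 (adjusted p = 0.00394). For Mgst1 the changes were -1.11 in liver and 0.07 in kidney, which differed by -1.19 (adjusted p = 0.036). The change of Sult4a1 was -0.63 in liver against 3.69 in kidney, with a difference of -4.32 (adjusted p = 0.000101). Sult5a1 changed by -0.43 in liver and by 2.01 in kidney, a difference of -2.44 (adjusted p = 0.00152).

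Between liver and WAT all listed genes had the lower estimate in liver, which the rule favoured, as liver had only lower calls and WAT 0. Gstm2 (1.33, adjusted p = 0.00636) and Gstm5 (1.79, adjusted p = 0.0219) differed the other way. Gstt2 differed by -2.25 (adjusted p = 0.0151). These genes were called in neither tissue and are not listed. For Gsto1 the changes were -0.87 in liver and 0.41 in WAT, which differed by -1.29 (adjusted p = 0.0241). The change of Gstp1 was -2.27 in liver against -0.54 in WAT, with a difference of -1.73 (adjusted p = 0.0126). Gstp2 changed by -1.06 in liver and by -0.33 in WAT, a difference of -0.74 (adjusted p = 0.0466). For Mgst1 the changes were -1.11 in liver and -0.07 in WAT, which differed by -1.04 (adjusted p = 0.0473). The change of Ugt1a10 was -1.51 in liver against 0.57 in WAT, with a difference of -2.07 (adjusted p = 0.0299).

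Between lung and kidney the listed genes were called in kidney and in no case in lung. Gstk1 changed by -0.21 in lung and by -1.59 in kidney, a difference of 1.38 (adjusted p = 0.00516). For Gstp2 the changes were -0.02 in lung and -0.99 in kidney, which differed by 0.97 (adjusted p = 0.00922). The change of Gstp3 was -0.05 in lung against 2.37 in kidney, with a difference of -2.42 (adjusted p = 0.00136). Gstz1 changed by -0.08 in lung and by -1.43 in kidney, a difference of 1.35 (adjusted p = 0.00881). For Sult4a1 the changes were 0.36 in lung and 3.69 in kidney, which differed by -3.33 (adjusted p = 0.000708). The change of Sult5a1 was -0.63 in lung against 2.01 in kidney, with a difference of -2.64 (adjusted p = 0.000523). Ugt1a10 changed by 0.89 in lung and by -1.41 in kidney, a difference of 2.30 (adjusted p = 0.014). For Ugt3a2 the changes were 0.18 in lung and -1.96 in kidney, which differed by 2.14 (adjusted p = 0.00479).

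Between kidney and WAT all listed genes were called in kidney, as the rule required with 0 calls in WAT. The change of Gstm2 was -0.45 in kidney against -1.51 in WAT, with a difference of 1.07 (adjusted p = 0.0169). Gstt2 changed by -0.84 in kidney and by 0.97 in WAT, a difference of -1.82 (adjusted p = 0.0331). For Sult4a1 the changes were 3.69 in kidney and -0.95 in WAT, which differed by 4.64 (adjusted p = 4.7e-05). The change of Sult5a1 was 2.01 in kidney against 0.30 in WAT, with a difference of 1.71 (adjusted p = 0.0109). Ugt1a10 changed by -1.41 in kidney and by 0.57 in WAT, a difference of -1.97 (adjusted p = 0.0296). For Ugt3a2 the changes were -1.96 in kidney and -0.47 in WAT, which differed by -1.48 (adjusted p = 0.0348).

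The tests were repeated without single samples that stood apart. Without the liver of aged mouse 2, 7 of the 12 listed differences that involve liver were still called and 5 were not: Mgst1 against kidney (-1.04, adjusted p = 0.0836), and Gsto1 (-1.10, adjusted p = 0.0628), Gstp2 (-0.61, adjusted p = 0.112), Mgst1 (-0.90, adjusted p = 0.109) and Ugt1a10 (-1.97, adjusted p = 0.0627) against WAT. Without the WAT of young mouse 1, 8 of the 11 that involve WAT were still called and 3 were not: Mgst1 against liver (-0.78, adjusted p = 0.0947), and Gstt2 (-1.46, adjusted p = 0.0708) and Ugt3a2 (-1.16, adjusted p = 0.0752) against kidney. Without the lung of aged mouse 1, all 11 that involve lung were still called. None of these differences changed its sign.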

How the results depend on the processing

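Of the 35 age changes named by rule, none reversed under any of the alternatives: 409 of 525 values kept their call and 116 no longer passed (66 of 150 in liver, 33 of 60 in lung and 17 of 315 in kidney). Among the 35 are Sult2a2, Sult2a3 and Sult2a6 in kidney and Sult2a6 in lung, whose direction the filter had fixed. The rule took only changes already called, so the kept directions describe the processing and add no support. Counts of genes moved more, and their causes were not tested beyond what the settings themselves change. In liver the count of higher genes, 0, became 1 with quantile normalization, 4 with spike-in scaling and 4 with all 24 arrays in 1 fit, and 0 to 5 when single mice were left out. The liver count of lower genes, 14, became 9 with quantile normalization, 3 with spike-in scaling and 2 with the methods' t-test after Benjamini-Hochberg adjustment, and 0 to 27 when single mice were left out. The methods' t-test at its own unadjusted threshold called 1 higher and 14 lower in liver, 3 and 11 in lung, 11 and 35 in kidney, and 1 and 10 in WAT. Over all entries that test called 3600 higher and 7030 lower in liver and 2309 and 5027 in lung. In kidney it called 6432 and 13567 of all entries, and in WAT 2646 and 2668. In lung the 1 higher gene was lost (0) with normexp background correction, without the filter, with all 24 arrays and with the t-test, and single mice left out gave 0 to 1. The 3 lower lung genes became 0 without the filter and with the t-test, and 0 to 3 with single mice left out. In kidney all 24 arrays in 1 fit gave 5 higher and 17 lower genes, and in WAT 1 higher and 9 lower. For young levels the lung count of 0 became 1 with quantile normalization, spike-in scaling, aged in place of young arrays or without the WAT of young mouse 1, and 0 to 1 without single mouse numbers. The kidney count of 7 became 2 to 7 without single mouse numbers. The WAT count of 4 became 2 with spike-in scaling and with aged arrays, and 2 to 4 without single mouse numbers.

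The labels tie no young mouse to an aged one, and deviations of same-numbered samples correlated at only -0.17 to 0.18, so the numbers were not taken to pair the samples. In kidney every sample correlated best with its own number (0.03 to 0.10), a hint from the data and not from the design. With the replicate number as a block, 7 genes were lower in liver, and 0 were lower and 0 higher in lung. Numbers shared by the ages were 2 in liver and 3 in the other tissues. The block changed no other count by more than 1.5 times.

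Signal over background limits dim genes: Sult2a2 and Sult2a6 had no young kidney or liver above background, and folds against such groups are bounds.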

Other observations

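Transporters that carry conjugates out of the cell, regulators and targets of the stress factor NRF2 were read beside the enzymes. In aged kidney 3 of 7 export pumps were higher and 3 lower. Abcc3, a pump for glucuronides, rose by 3.20 (SE 0.18, adjusted p = 7.6e-05), from a mean of -2.49 to 0.72, and Abcc4 and Abcb1a rose by 0.70 and 0.78. Abcc2, Abcc6 and Abcg2 changed by -1.01, -1.07 and -1.20. In aged liver Abcc1, Abcb1a and Abcc4 rose by 1.90, 1.14 and 0.68, and Abcg2 changed by -1.37. Of 13 receptors and transcription factors tested in kidney 4 were higher and 4 lower, and the lower ones included Hnf4a (-1.08, adjusted p = 0.000524), a factor of tubule and liver genes, Ppara and Rxra. Ahr, Cux2, Nfe2l2 (which encodes NRF2) and Nr1i2 rose by 0.23 to 0.52.

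Of 9 NRF2 targets outside the families 5 were lower in kidney, among them Nqo1 (-1.22) and Me1 (-1.60), and 2 were higher, Cbr3 (2.10) and Gpx2 (0.73). In liver 3 were higher and 0 lower by limma (Cbr3, G6pdx and Hmox1, by 1.17, 1.89 and 2.0), with 2 lower at an unadjusted p under 0.05. In WAT Hmox1 rose by 2.96 (adjusted p = 0.0399), and in lung 0 of 9 were called, with 2 lower and 0 higher at an unadjusted p under 0.05. In lung 1 of 13 glutathione genes was lower, and 0 of 4 UDP-glucuronate and 0 of 5 PAPS genes were called by limma. At an unadjusted p under 0.05 the former held 1 lower and 1 higher gene and the latter 4 lower genes.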
